A study of Mus musculus with 6 samples.

Results

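The integrated stress response was described through 10 genes, Atf4, Ddit3, Trib3, Asns, Chac1, Ppp1r15a, Sesn2, Eif2ak1, Xbp1 and Herpud1. They are 10 of 20678 symbols that stand alone on a probe set. They were chosen by name, and every probe set that the authors' deposited results table gives to 1 of these symbols alone was taken, 24 of the 45101 probe sets on the array. RNA came from bone marrow of c-Jun inducible mice aged 8 weeks. The 3 induced arrays came from mice that had drunk water with doxycycline (1 mg/ml) over 24 h, taken on day 1, and the 3 control arrays came from mice of the same kind taken on day 0, which their labels place before induction. The protocol text can also be read as doxycycline on both days, so that the control mice were free of it rests on those labels. All 6 arrays therefore share the inducible c-Jun construct, and each held RNA pooled from 3 mice. The promoter that drives c-Jun is not given in the sources used here, and mice given doxycycline without an inducible gene were not analysed here, so the antibiotic and the induced gene cannot be told apart.

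Cells under stress phosphorylate the translation initiation factor eIF2 on its alpha subunit, which lowers protein synthesis in general while the mRNA of the transcription factor ATF4 is translated better. ATF4, and the factor CHOP downstream of it, then switch on genes of amino acid supply, redox balance and cell death. In marrow the pathway is best known in erythroblasts, where the kinase HRI senses a shortage of haem and holds back globin synthesis. XBP1 and HERPUD1 belong to the neighbouring response to unfolded protein in the endoplasmic reticulum, and XBP1 is needed by plasma cells and eosinophils.

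Signals below are the deposited values in arbitrary units, means carry the SD over 3 arrays, and a signal of 2, the highest that 27 probe sets for bacterial transcripts reached, was taken as background. Summed signal was between 222930 and 278500 on induced arrays and between 189287 and 214237 on control arrays, and the number of arrays limits the precision. Control 2 stood apart, with 346 signals of 0 against 4653 to 7818 on the other arrays. The Gapdh probe set at the 5' end read 27.5% ± 1.58 of the one at the 3' end on induced arrays and 16.5% ± 5.50 on control arrays (n = 3 each, exact permutation p = 0.1, two-sided). With 3 arrays a group no smaller p is possible. The part of this difference in RNA quality measures in the results was not tested. Jun, the induced gene, had 2.80 ± 1.41 on induced arrays and 1.13 ± 0.90 on control arrays in its brightest probe set (n = 3 each; limma, adjusted p = 0.446). Neither of its 2 probe sets was called, and whether they read the construct is not known here. The brightest marrow markers, S100a8 and S100a9 of neutrophils, were at 2690.2 or more on every array. Of the markers of B cells, plasma cells and eosinophils, Pax5, Prdm1, Tnfrsf17, Il5ra and Ccr3 were at or under background on all 6. Other markers of the same cells, among them Cd79b, Jchain and Prg2, were over background on all 6.

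After 24 h of induction, the calls among the integrated stress response genes went in both directions. Ppp1r15a and 1 probe set of Eif2ak1 fell, 1 probe set of Xbp1 rose, and no probe set of the other 7 genes was called. In simulated data the script recovered 23% of 2-fold and 75% of 4-fold changes, all placed in probe sets with a mean signal over 10. Most member probe sets were dimmer than that, and recovery at their level was not simulated. The lack of a call therefore does not show that a gene was unchanged. Of the 24 probe sets, 21 were bright enough to be tested, and 1 was called higher and 2 lower at an adjusted p under 0.05 (limma over all probe sets). Over all 31526 probe sets tested, 5.54% were called, 4.19% higher and 1.35% lower. Of those calls 75.6% were higher as deposited, 53.3% after quantile normalization and 63.5% after scaling every array to 1 trimmed mean. Most of the genes were dim: 12 probe sets were over background on all 6 arrays, 4 were at or under it on all 6, and 8 were over it on some arrays. Of the 14 tested probe sets whose mean signal exceeded 2, 3 were called, against 18.1% of all probe sets that bright, and in 5 the groups did not overlap, against 35.0%. Both shares were near the background. Induced and control arrays did not overlap in 7 of the 21 probe sets, 4 higher and 3 lower, against 18.0% of all tested. The median log2 change of (signal + 16) was 0.05 over the 21 and -0.0045 over all tested.

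**Figure D1:**
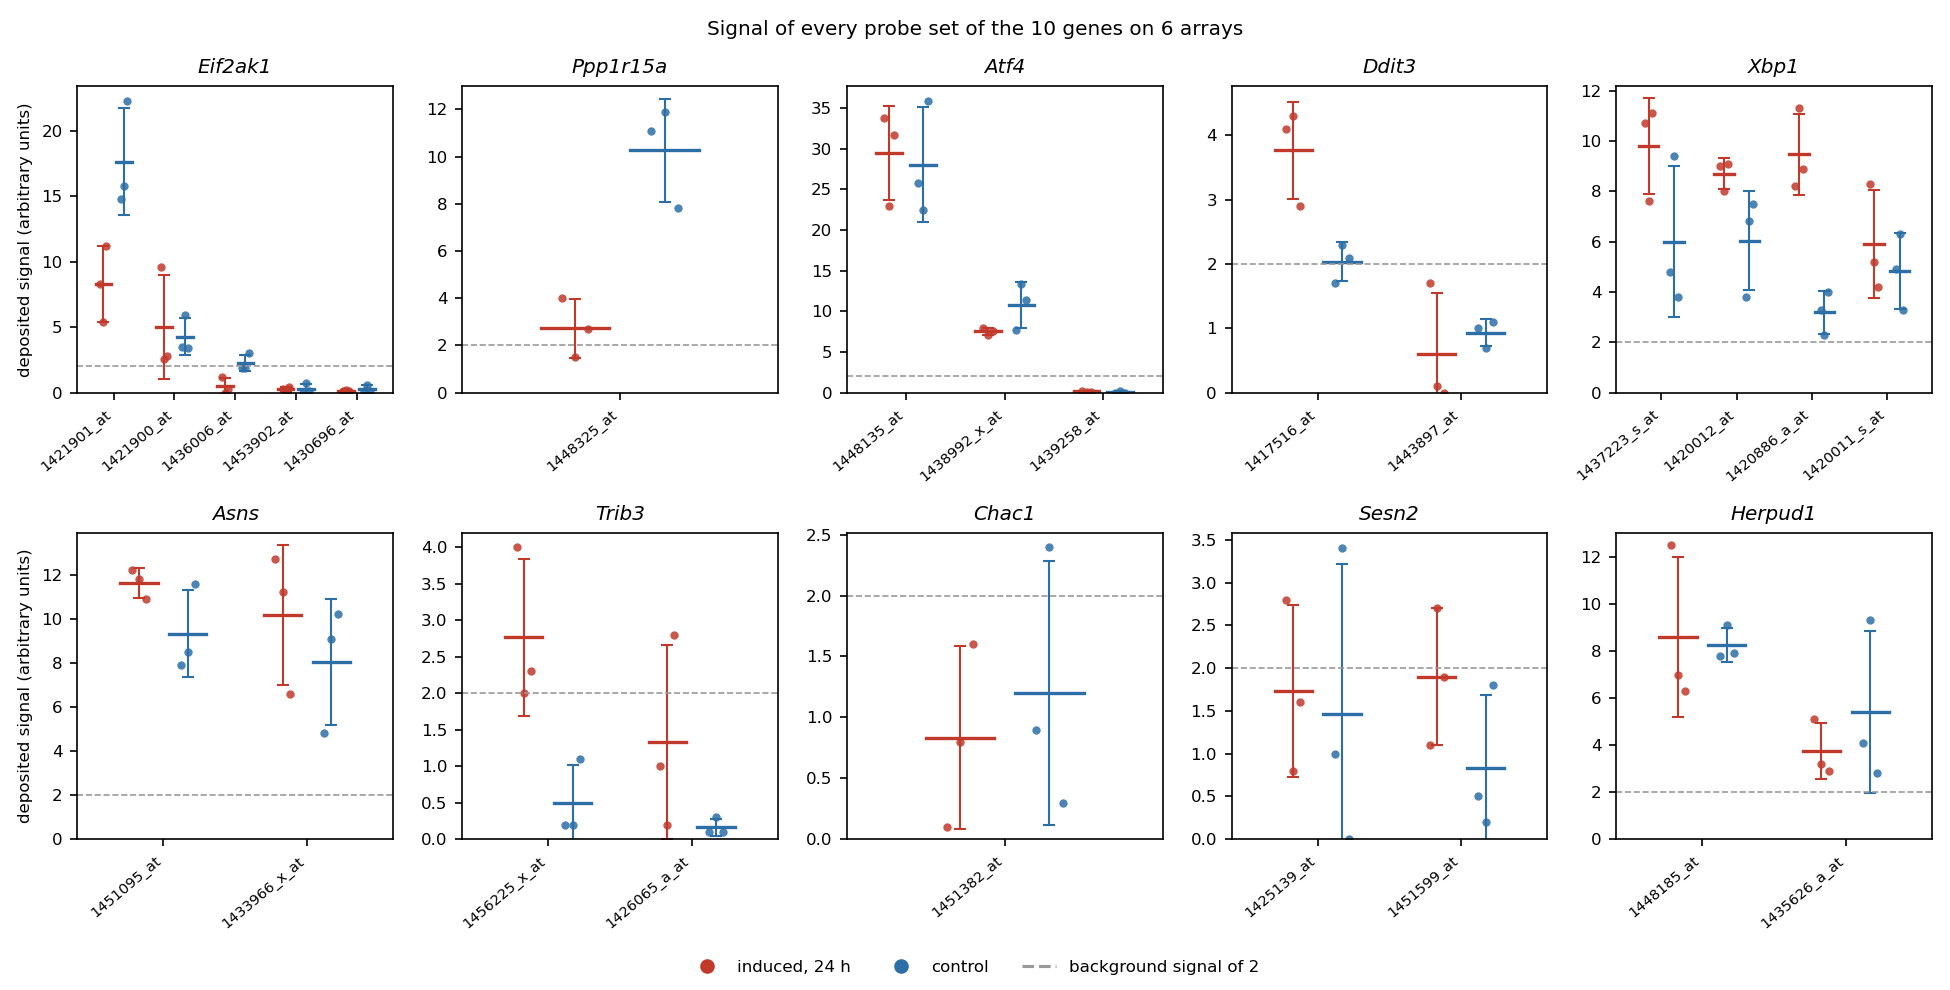
Deposited signal (vertical axes, arbitrary units, starting at 0) of all 24 probe sets of the 10 genes on the 3 induced arrays (red, left) and the 3 control arrays (blue, right), with points for arrays, bars for means and whiskers for SD, cut off at 0, and a dashed line at the background signal of 2. The groups stand apart for Ppp1r15a, for Eif2ak1 in 1421901_at and for Xbp1 in 1420886_a_at, while Chac1 and both Sesn2 probe sets lie near or under the dashed line on most arrays.

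Of the genes that set the phosphorylation of eIF2, the phosphatase subunit gene Ppp1r15a fell. Ppp1r15a encodes GADD34, which brings a phosphatase to eIF2 alpha and ends the response, and is itself switched on by ATF4 and CHOP. Its single probe set, 1448325_at, had signals of 4.0, 1.5 and 2.7 on induced arrays, against 11.1, 11.9 and 7.8 on control arrays. Every induced array lay below every control array, and induced 2 was under background. The mean was 2.73 ± 1.25 on induced arrays and 10.3 ± 2.17 on control arrays, 3.76-fold lower with induction. The log2 change of (signal + 16) was -0.49 with a standard error of 0.07 (limma, adjusted p = 0.00462). On that scale the change of a gene this dim is understated. The call held without any single array, with adjusted p between 0.00508 and 0.0298, and was lost with a pseudocount of 1 (0.0761). The authors' deposited table gave a ratio of control over induced of 7.83 for it, with an unadjusted p of 7.93e-04. The values behind that table's ratios are not stated in the sources used here. The ratios differ from those of the deposited mean signals, for Eif2ak1 1421900_at and Atf4 1448135_at also in direction.

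The promoter of Ppp1r15a held a cyclic AMP response element, TGACGTCA, in capitals below, whose first base lies 12 bases before the start site. It is shown because Ppp1r15a had the largest absolute log2 change of the 21 probe sets tested. That element was found in 1.79% of 32851 RefSeq promoter windows (GRCm38.p6, 250 bases before to 50 after the start site, both strands searched). All 10 genes had such a window, and no other member held the element.
Ppp1r15a (chr7:45526269-45526518, minus strand): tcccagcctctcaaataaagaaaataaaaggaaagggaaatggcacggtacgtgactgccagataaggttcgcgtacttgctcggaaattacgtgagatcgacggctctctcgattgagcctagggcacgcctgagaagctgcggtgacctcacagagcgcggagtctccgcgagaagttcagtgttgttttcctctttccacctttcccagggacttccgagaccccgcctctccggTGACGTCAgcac

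Eif2ak1 encodes HRI, the haem-regulated kinase that phosphorylates eIF2 alpha, and its probe sets differed. Its brightest, 1421901_at, had signals of 8.3, 5.4 and 11.2 on induced arrays, against 14.8, 15.8 and 22.3 on control arrays. All induced arrays were below all control arrays. The mean was 8.30 ± 2.90 on induced arrays and 17.6 ± 4.07 on control arrays, 2.12-fold lower, with a log2 change of -0.47 and a standard error of 0.10 (limma, adjusted p = 0.0285). This call rested on few arrays, since it was lost without control 2 (adjusted p = 0.0851), control 3 (0.0942), induced 1 (0.0674) or induced 2 (0.0785). It was also lost with a pseudocount of 1 (0.292) or 64 (0.0920) and with no filter on dim probe sets (0.136). A second probe set, 1436006_at, had 1.2, 0.0 and 0.3 on induced arrays, all at or under background, against 1.9, 1.9 and 3.0 on control arrays. These groups did not overlap either, but only control 3 was over background, so no fold is given, and the probe set was not called (adjusted p = 0.202). In 1421900_at the groups overlapped, with 9.6, 2.6 and 2.8 on induced arrays and 3.5, 5.9 and 3.4 on control arrays (adjusted p = 0.942). Without induced 1, the highest of these, its log2 change was -0.11 in place of 0.04. The last 2, 1430696_at and 1453902_at, did not exceed 0.7 on any array and were not tested.

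Markers of red cell precursors, the cells in which HRI is abundant, fell along with Eif2ak1. Of 12 erythroid markers 11 fell and 0 rose, and their summed signal was 323.2 to 399.9 on induced arrays and 1354.5 to 1547.1 on control arrays. The brightest of them, Slc4a1 and Ahsp, had means of 105.4 ± 6.29 and 71.0 ± 18.2 on induced arrays, against 394.1 ± 55.6 and 363.7 ± 45.7 on control arrays (n = 3 each). None of the 12 was at background on all arrays. The part of these cells in the fall of Eif2ak1 was not tested. In RNA from bulk marrow, fewer cells of a type and less RNA per cell cannot be told apart.

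None of the 5 searched motifs was found in the promoter window of Eif2ak1 or of Xbp1, the other genes with a call. The letters searched were TGATGNAAN (the C/EBP-ATF response element bound by ATF4 with its partners), TGACGTGG (an XBP1 or ATF6 element), TGANTCA (AP-1), TGACGTCA and the endoplasmic reticulum stress response element. No match says only that these letters are not in this window. Both upstream sequences are shown because these genes were called in opposite directions.
Eif2ak1 (chr5:143817542-143817791, plus strand): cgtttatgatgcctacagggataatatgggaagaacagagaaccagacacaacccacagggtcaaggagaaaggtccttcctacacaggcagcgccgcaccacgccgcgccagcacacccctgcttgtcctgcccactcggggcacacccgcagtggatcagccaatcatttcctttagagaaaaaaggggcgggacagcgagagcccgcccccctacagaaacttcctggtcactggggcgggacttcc
Xbp1 (chr11:5520391-5520640, plus strand): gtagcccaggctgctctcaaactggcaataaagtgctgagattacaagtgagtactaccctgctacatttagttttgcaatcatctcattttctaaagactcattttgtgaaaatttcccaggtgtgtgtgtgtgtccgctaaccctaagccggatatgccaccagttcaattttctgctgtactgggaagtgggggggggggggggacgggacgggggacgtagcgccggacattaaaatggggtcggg

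Among the transcription factors, Xbp1 rose in 1 of 4 probe sets. XBP1 raises genes of the secretory pathway after its mRNA is cut and rejoined by the sensor IRE1. The probe set called, 1420886_a_at, had signals of 8.2, 11.3 and 8.9 on induced arrays, against 3.3, 2.3 and 4.0 on control arrays. All induced arrays were above all control arrays, with means of 9.47 ± 1.63 and 3.20 ± 0.85, 2.96-fold higher with induction. The log2 change was 0.41 with a standard error of 0.06 (limma, adjusted p = 0.00444). The call held without any single array (0.00667 to 0.0249) and was lost with a pseudocount of 1 (0.148) or by the authors' deposited p-values (0.0590 after adjustment).

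The other Xbp1 probe sets had the same sign of change without a call. In 1420012_at the groups did not overlap, with 9.0, 8.0 and 9.1 on induced arrays and 3.8, 6.8 and 7.5 on control arrays (log2 change 0.17, adjusted p = 0.287). In 1437223_s_at the signals were 10.7, 7.6 and 11.1 on induced arrays and 4.8, 9.4 and 3.8 on control arrays (0.24, adjusted p = 0.281). In 1420011_s_at they were 8.3, 5.2 and 4.2 on induced arrays and 4.9, 6.3 and 3.3 on control arrays (0.07, adjusted p = 0.808). The groups overlapped in the last 2 probe sets. Whether any of the 4 tells spliced from unspliced Xbp1 mRNA is not known here.

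Some markers of the cells that need XBP1 rose beside it. Of 6 plasma cell markers tested, 3 rose (Sdc1, Jchain and Mzb1) and 0 fell, and the sum over 7 was 108.8 to 139.0 on induced arrays and 61.4 to 87.2 on control arrays. The brightest over all 6 arrays, Jchain and Irf4, had means of 73.7 ± 4.87 and 14.3 ± 4.42 on induced arrays, against 46.9 ± 11.8 and 14.9 ± 3.51 on control arrays, and Tnfrsf17 and Prdm1 were at background throughout. Of 5 eosinophil markers tested, 4 rose and 0 fell, with a sum over 6 of 226.0 to 281.3 on induced arrays and 24.3 to 32.8 on control arrays. The brightest were Prg2 (124.2 ± 19.5 on induced arrays, 14.9 ± 4.10 on control arrays) and Ear1 (94.2 ± 6.69 and 7.67 ± 2.61 in the same order), and Il5ra and Ccr3 were at background throughout. The part of these cells in the rise of Xbp1 was not tested.

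**Figure D2:**
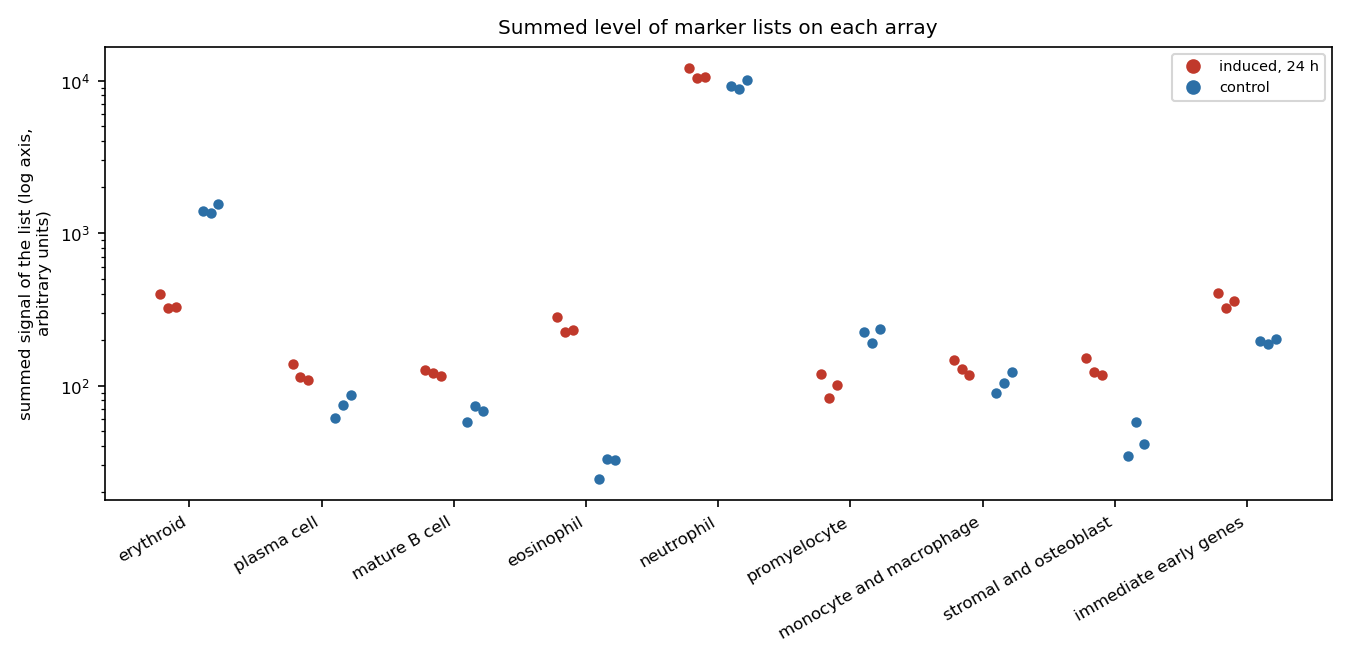
Summed deposited signal (vertical log axis, arbitrary units) of 8 marker lists and of immediate early genes on the 3 induced arrays (red, left) and the 3 control arrays (blue, right), 1 point an array. The erythroid sum is 323.2 to 399.9 on induced arrays and 1354.5 to 1547.1 on control arrays, and the eosinophil sum is 226.0 to 281.3 and 24.3 to 32.8 in the same order.

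Atf4, the central transcription factor of the response, was read above background by 2 probe sets, and neither was called. In 1448135_at the signals were 33.8, 22.9 and 31.7 on induced arrays, against 25.8, 22.4 and 35.9 on control arrays. The groups overlapped fully, with means of 29.5 ± 5.78 and 28.0 ± 7.02 (log2 change 0.05, standard error 0.12, adjusted p = 0.924). That sign turned with the scaling of the arrays, to -0.13 after quantile normalization and -0.05 after scaling to 1 trimmed mean. In 1438992_x_at the signals were 7.9, 7.1 and 7.6 on induced arrays, against 7.7, 13.3 and 11.4 on control arrays. Induced arrays varied little, and control 1 lay among them. The log2 change of -0.18 was not called (adjusted p = 0.296), but it was called after quantile normalization (-0.29, adjusted p = 0.0166), after scaling to 1 trimmed mean (-0.23, 0.0396) and without control 1 (-0.27, 0.0409). The third, 1439258_at, did not exceed 0.2 on any array and was not tested. ATF4 is controlled largely at the level of translation, which these arrays do not measure.

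Ddit3 encodes CHOP, the factor that links lasting stress to cell death, and was dim. In 1417516_at the signals were 4.1, 4.3 and 2.9 on induced arrays, against 1.7, 2.3 and 2.1 on control arrays. Every induced array was above every control array, and the controls lay around background. The log2 change of 0.13 (standard error 0.05) was not called (adjusted p = 0.239), and the authors' deposited table gave a ratio of control over induced of 0.891 with an unadjusted p of 0.637. The other probe set, 1443897_at, did not exceed 1.7 on any array. The upstream sequence of Ddit3 held TGACTCA, a match to the AP-1 motif TGANTCA, 242 bases before the start site, the one match to that motif among the 10 genes. The motif was found in 7.81% of all promoter windows. It is shown because c-Jun is a subunit of AP-1, with the match in capitals.
Ddit3 (chr10:127290543-127290567, plus strand): cgcgcgcaTGACTCActcacctcct

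Of the targets of ATF4 and CHOP among the members, Asns, Trib3, Chac1 and Sesn2 were not called, whereas Ppp1r15a fell as given above. Asns encodes asparagine synthetase, Trib3 a pseudokinase that damps ATF4, Chac1 an enzyme that degrades glutathione, and Sesn2 an inhibitor of the growth kinase complex mTORC1. In Asns 1451095_at the signals were 12.2, 11.8 and 10.9 on induced arrays, against 7.9, 8.5 and 11.6 on control arrays. Control 3 lay among the induced arrays (log2 change 0.13, adjusted p = 0.423). Its other probe set, 1433966_x_at, had 12.7, 11.2 and 6.6 on induced arrays and 4.8, 9.1 and 10.2 on control arrays, and these overlapped (0.12, adjusted p = 0.723).

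Trib3 was at or under background on all control arrays. In 1456225_x_at the signals were 4.0, 2.0 and 2.3 on induced arrays, against 0.2, 0.2 and 1.1 on control arrays. The groups did not overlap, and 2 of the 3 induced arrays were over background, with a mean of 2.77 ± 1.08 on induced arrays and 0.50 ± 0.52 on control arrays. It was not called (log2 change 0.18, adjusted p = 0.122), but by the authors' deposited p-value of 1.25e-04, adjusted over the same probe sets, it was (0.0215). In 1426065_a_at the signals were 1.0, 0.2 and 2.8 on induced arrays, against 0.1, 0.3 and 0.1 on control arrays, so only induced 3 exceeded background. Chac1 had 0.1, 0.8 and 1.6 on induced arrays, against 0.9, 2.4 and 0.3 on control arrays, and only control 2 exceeded background. The Sesn2 probe sets gave 0.8 to 2.8 on induced arrays and 0.0 to 3.4 on control arrays, with overlap in both (adjusted p = 0.601 and 0.941). At signals this low a difference was hard to detect, so the lack of a call does not show that there was none.

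Herpud1 encodes a membrane protein of the endoplasmic reticulum that helps to degrade misfolded proteins. In 1448185_at its signals were 12.5, 7.0 and 6.3 on induced arrays, against 7.8, 9.1 and 7.9 on control arrays. Induced 1 was the highest and the other induced arrays the lowest, so the groups overlapped (log2 change 0.01, adjusted p = 0.980), and the sign turned after quantile normalization (-0.10) and after scaling to 1 trimmed mean (-0.04). In 1435626_a_at the signals were 5.1, 3.2 and 2.9 on induced arrays and 4.1, 9.3 and 2.8 on control arrays (-0.11, adjusted p = 0.755), with control 2 the highest.

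The C/EBP-ATF response element TGATGNAAN was found in 4 of the 10 promoter windows, those of Asns, Chac1, Herpud1 and Trib3, against 3.95% of all 32851 windows. These genes are known targets, so the matches are a description. They are shown because none of the 4 genes was called, with the match in capitals and 10 bases either side. In Chac1, Herpud1 and Trib3 the element lies on the opposite strand and is printed in reverse complement. The Asns match begins 23 bases before the start site, that of Herpud1 113 and that of Chac1 194 bases before it, and that of Trib3 begins 13 bases past the first transcribed base.
Asns (chr6:7693214-7693242, minus strand): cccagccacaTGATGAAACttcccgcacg
Chac1 (chr2:119351038-119351066, plus strand): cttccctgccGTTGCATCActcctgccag
Herpud1 (chr8:94386306-94386334, plus strand): accacggcggGTTGCATCAgcccgcaccc
Trib3 (chr2:152344029-152344057, minus strand): ttagctcaggTTTACATCAgccgggcggg

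**Figure D3:**
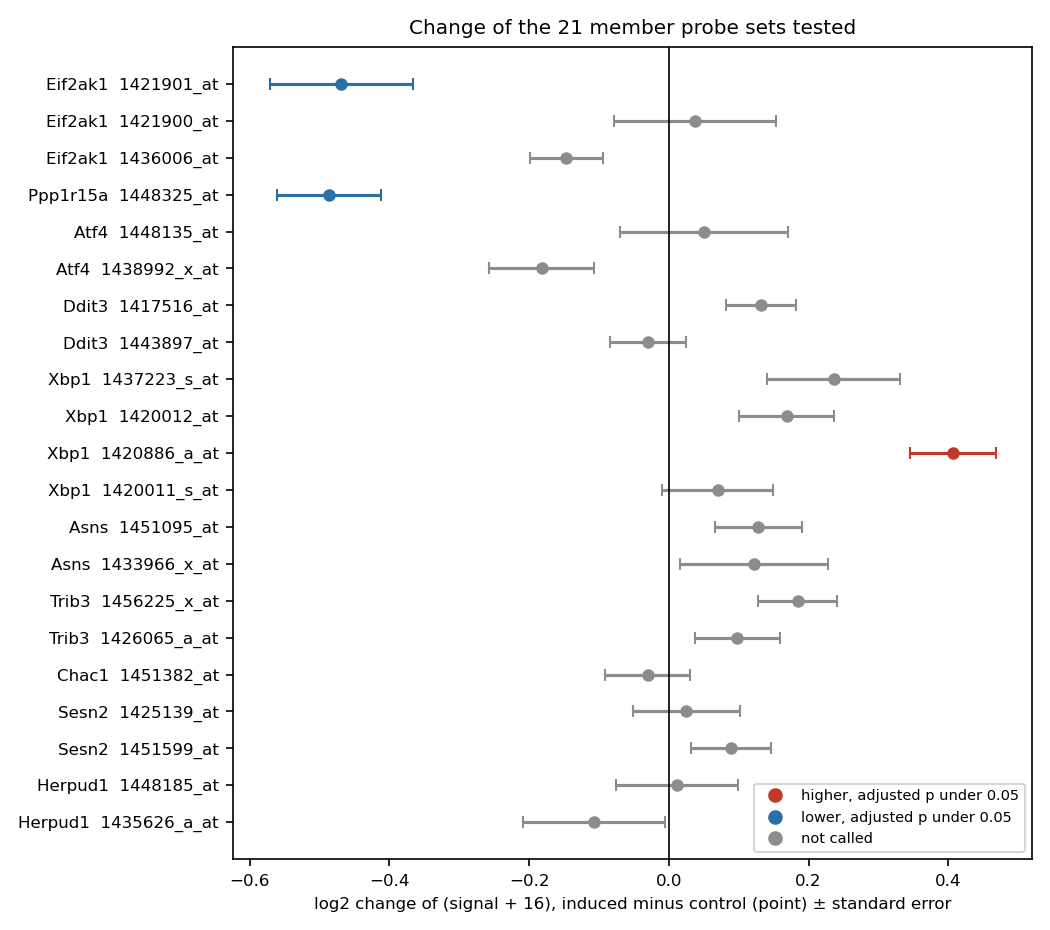
Log2 change of (signal + 16), induced minus control (horizontal axis), with its standard error, of the 21 member probe sets tested, coloured by call at an adjusted p under 0.05. Ppp1r15a (-0.49) and Eif2ak1 1421901_at (-0.47) lie to the left, Xbp1 1420886_a_at (0.41) to the right, and the 18 probe sets without a call between -0.18 and 0.24.

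The 3 calls coincided with the authors' own selection. The authors' deposited 2-fold list held 3 of the 24, the same probe sets of Ppp1r15a, Eif2ak1 and Xbp1, against 2.54% of all probe sets in their table. The calls and that list come from the same arrays. The 2.54% is not matched for brightness, and 76.9% of all signals were at or under background. The authors' deposited table gave ratios of control over induced of 2.75 for Eif2ak1 1421901_at and 0.291 for Xbp1 1420886_a_at. The scaling of the arrays bears on these values, since the median log2 change of the 2868 probe sets brighter than 10 on average was 0.24 as deposited, 0.06 after quantile normalization and 0.16 after scaling to 1 trimmed mean. After quantile normalization the log2 change was -0.56 for Ppp1r15a (adjusted p = 0.00111), -0.59 for Eif2ak1 1421901_at (0.00145) and 0.35 for Xbp1 1420886_a_at (0.0190).

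**Figure D4:**
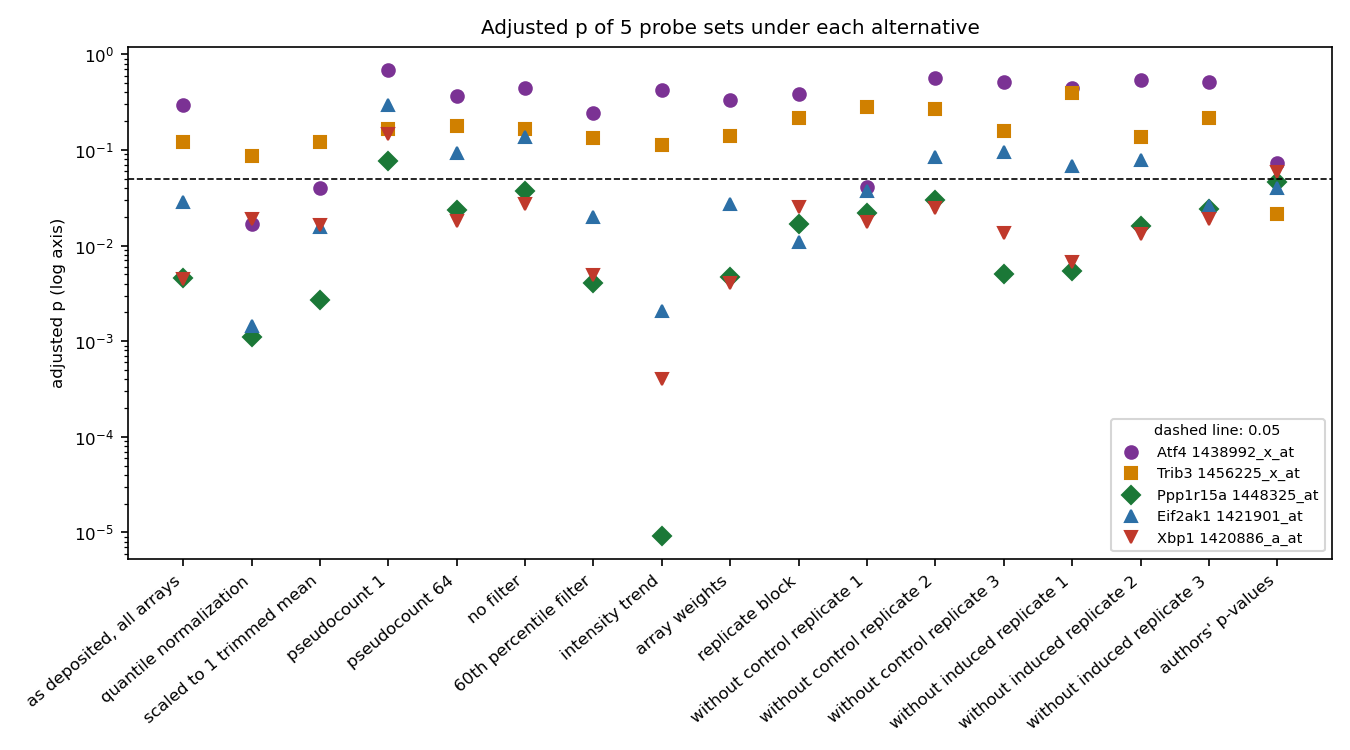
Adjusted p (vertical log axis) of the 5 member probe sets called under any setting shown, as deposited with all arrays and under 16 alternatives (horizontal axis), 1 symbol a probe set, with a dashed line at 0.05. Ppp1r15a and Xbp1 lie under the line except at a pseudocount of 1 (0.0761 and 0.148) and, for Xbp1, by the authors' p-values (0.0590), whereas Eif2ak1 crosses it when single arrays are left out.

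Around these members, 5 lists held 105 other genes of the pathway, of which 100 had a probe set of their own, 1 taken per gene. Of the 94 tested, 8 rose and 6 fell, and their median log2 change was 0.05. The shares among all genes, 5.13% higher and 1.83% lower, are not matched for brightness. Where the tested signal averaged more than 2, the shares were 13.7% higher and 4.32% lower, so the 8 that rose are no excess over that level. Among the genes of eIF2 phosphorylation, eIF2 and its exchange factor eIF2B, 1 of 13 rose and 0 fell. That was Eif2s1, which encodes eIF2 alpha itself, with 11.5 ± 2.46 on induced arrays and 5.63 ± 1.42 on control arrays (n = 3 each; adjusted p = 0.0280). Its call was lost without any single array other than induced 2 (adjusted p between 0.0546 and 0.0994). The list includes the kinases related to HRI, and none of them was called. Eif2ak4 was at or under background on every array, and Eif2ak2 was over it on only 1 array of each group. A change in these 2 was therefore hard to detect. PERK, the kinase of the endoplasmic reticulum encoded by Eif2ak3, had 3.87 ± 1.63 on induced arrays and 3.83 ± 0.93 on control arrays. Ppp1r15b, the constitutive partner of the same phosphatase as Ppp1r15a, had 43.0 ± 12.6 on induced arrays and 35.6 ± 3.84 on control arrays (adjusted p = 0.656). Eif2ak2, Eif2ak3, Eif2ak4 and Ppp1r15b lie outside the rule for named genes and were picked with their values in view.

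Of 15 stress transcription factors and regulators tested, 2 rose and 0 fell. Over all genes 5.13% were higher and 1.83% lower, and over tested probe sets with a mean signal over 2, 13.7% and 4.32%. Ddit4, which encodes the mTORC1 inhibitor REDD1, had 19.5, 9.7 and 22.6 on induced arrays, against 1.3, 2.9 and 2.7 on control arrays (7.51-fold higher, adjusted p = 0.00476). Bcl2l11, the gene of the pro-apoptotic protein BIM, had 19.8, 12.5 and 12.5 on induced arrays, against 1.7, 5.8 and 3.1 on control arrays (4.23-fold, adjusted p = 0.00521). Only 1 of its 5 probe sets was called. Control arrays lay around background for Ddit4 (2.30 ± 0.87), and control 1 was under it for both genes, so both folds are uncertain. Both calls held when any 1 array was left out, and both were lost with no filter on dim probe sets (adjusted p = 0.0556 for Ddit4 and 0.0530 for Bcl2l11). Both are also controlled outside the integrated stress response.

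Of 18 tested genes of amino acid synthesis and transport, 5 fell and 1 rose, with a median log2 change of -0.02. Over all genes 1.83% were lower and 5.13% higher, and over tested probe sets with a mean signal over 2, 4.32% and 13.7%. The glycine transporter gene Slc6a9 was at or under background on induced arrays and at 32.7 ± 4.71 on control arrays, at least 16.4-fold lower (adjusted p = 1.67e-05). Mthfd2, an enzyme of mitochondrial one-carbon metabolism, had 5.6 ± 1.61 on induced arrays and 12.5 ± 1.64 on control arrays (2.23-fold lower, adjusted p = 0.00853). Slc7a1, a transporter of basic amino acids, had 34.0 ± 7.15 on induced arrays and 58.4 ± 9.67 on control arrays (adjusted p = 0.0191). Slc1a5, a glutamine transporter, had 1.97 ± 0.81 on induced arrays and 6.63 ± 1.93 on control arrays (adjusted p = 0.0244). The fifth, Slc7a5, a transporter of large neutral amino acids that lies outside the naming rule, had 8.43 ± 2.75 on induced arrays and 16.7 ± 4.0 on control arrays (adjusted p = 0.0476). The one that rose, Slc38a2, another transporter and a known ATF4 target, had 9.77 ± 1.85 on induced arrays and 5.40 ± 0.56 on control arrays (adjusted p = 0.0347). Of the probe sets tested, 1 of 2 was called for Slc6a9 and for Mthfd2, and 1 of 3 for Slc7a1 and for Slc38a2.

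Several of these amino acid calls rested on few arrays. That of Slc7a1 was lost without control 1 (adjusted p = 0.0657), control 3 (0.0803), induced 1 (0.0509) or induced 3 (0.0730). Those of Slc1a5 and Slc7a5 were lost without control 2 (0.103 and 0.181), control 3 (0.104 and 0.152), induced 2 (0.0800 and 0.142) or induced 3 (0.104 and 0.144). That of Slc38a2 was lost without any single array other than induced 1 (0.0531 to 0.119) and under both scalings (0.135 and 0.0932). The 5 genes that fell did so beside the fall of the erythroid markers given above, and the part of those cells was not tested.

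Aminoacyl-tRNA synthetases load amino acids onto tRNA and include known ATF4 targets. Of the 17 tested, 0 fell, and the median log2 change of the list was 0.11. The share that fell was 1.83% among all genes and 4.32% where the tested signal averaged more than 2.

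Of 31 sensors, chaperones and degradation factors of the endoplasmic reticulum tested, 3 rose and 1 fell, with a median log2 change of 0.09. Over all genes 5.13% were higher and 1.83% lower, and over tested probe sets with a mean signal over 2, 13.7% and 4.32%. P4hb, a disulphide isomerase, had 61.2, 60.4 and 62.8 on induced arrays, against 38.7, 32.4 and 37.8 on control arrays (1.69-fold higher, adjusted p = 6.27e-04). Pdia3, another of that family, had 24.2 ± 3.41 on induced arrays and 10.4 ± 2.46 on control arrays (adjusted p = 0.00273). The lectin chaperone gene Canx had 49.2 ± 4.22 on induced arrays and 30.6 ± 5.05 on control arrays (adjusted p = 0.00833), in 1 of its 3 probe sets. Hsp90b1, the HSP90 of the endoplasmic reticulum, had 13.6 ± 3.56 on induced arrays and 25.7 ± 6.24 on control arrays (1.89-fold lower, adjusted p = 0.0369). That call, in 1 of its 2 probe sets, was lost without control 2 (0.101), control 3 (0.102), induced 2 (0.0736) or induced 3 (0.133). Hspa5 encodes BiP, a chaperone often read as a marker of this stress, and was chosen after its values were seen. Its brightest probe set, 1416064_a_at, had 55.3, 42.9 and 25.0 on induced arrays, against 14.3, 25.9 and 32.6 on control arrays, which overlapped (adjusted p = 0.316). Another, 1427464_s_at, was called higher, with 33.5 ± 3.21 on induced arrays and 18.8 ± 1.29 on control arrays (adjusted p = 0.00137), so the count of genes that rose depends here on the probe set that stands for the gene.

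**Figure D5:**
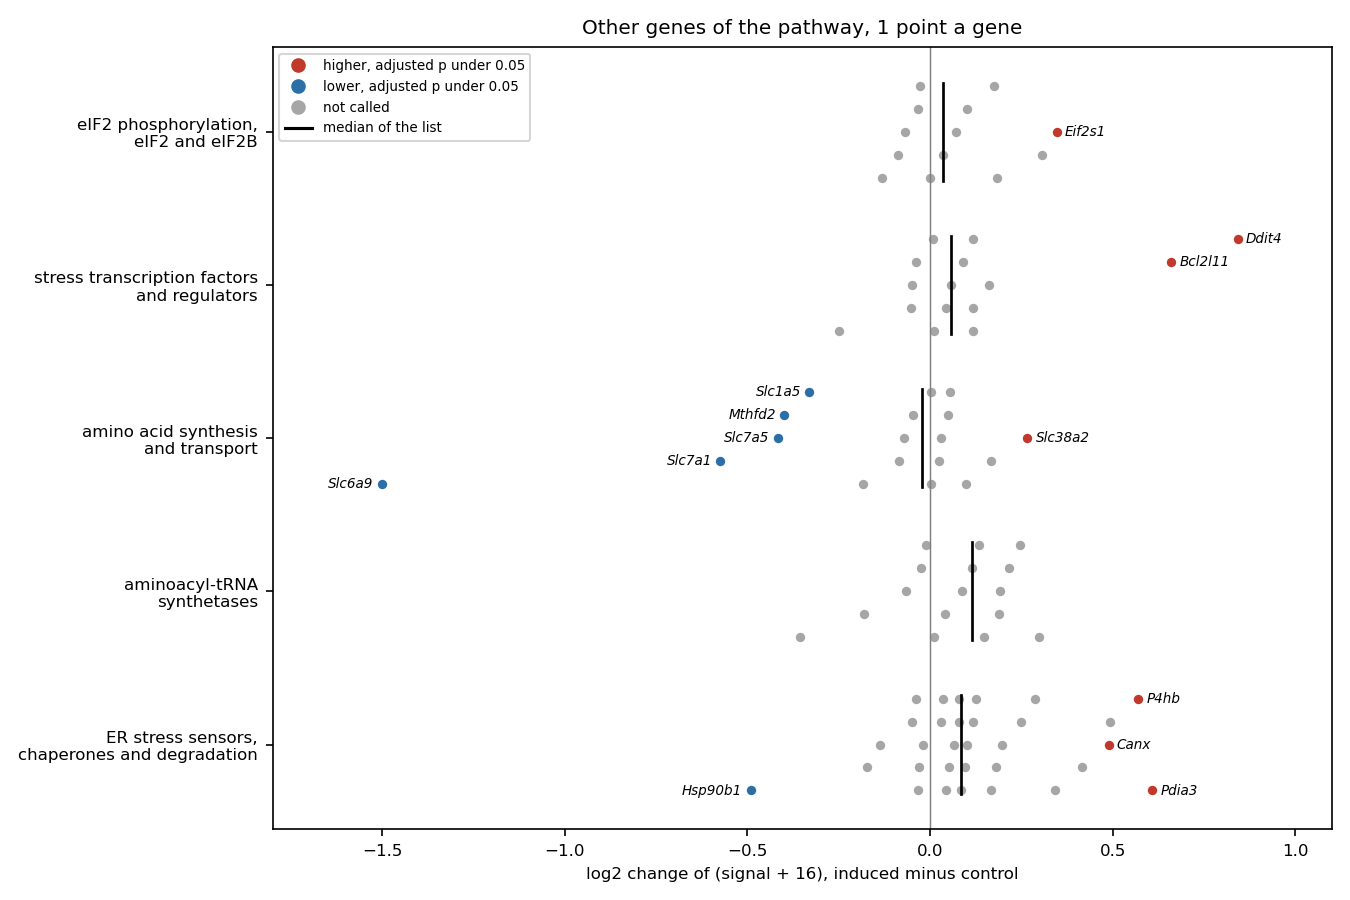
Log2 change of (signal + 16), induced minus control (horizontal axis), of the other pathway genes tested in 5 lists (rows), 1 point a gene with 1 gene not shown, coloured by call at an adjusted p under 0.05, with a black line at each list's median. Slc6a9 lies farthest to the left and Ddit4 farthest to the right, and the medians lie between -0.02 and 0.11.

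Marker mRNA of the other cell types was read on the same arrays, and no cell shares were measured. Of 4 promyelocyte markers 3 fell and 0 rose, with a sum of 83.3 to 118.6 on induced arrays and 189.2 to 234.2 on control arrays. Mpo, the brightest, had 71.3 ± 13.1 on induced arrays and 149.2 ± 12.7 on control arrays. Of 10 neutrophil markers 3 rose and 1 fell, with a sum of 10411.6 to 12158.8 on induced arrays and 8792.7 to 10094.8 on control arrays. For 9 monocyte and macrophage markers the counts were 5 higher and 1 lower, with a sum of 118.0 to 146.2 on induced arrays and 89.0 to 122.9 on control arrays. Mature B cell markers rose in 2 of 6, Cd79b and Ighm, with a sum of 115.5 to 126.6 on induced arrays and 57.3 to 73.5 on control arrays. Stromal and osteoblast markers rose in 4 of 6, among them Col1a1 and Sparc, with a sum of 117.6 to 151.7 on induced arrays and 34.4 to 57.8 on control arrays. None of the markers in these last 2 lists fell by its brightest probe set. Of 10 Ighm probe sets tested, however, 2 were called higher and 1 lower. Immediate early genes, among which Ppp1r15a is often counted, rose in 2 of 11, Fos and Dusp1, and fell in 0. Dusp1, a phosphatase of MAP kinases, had 138.7 ± 23.5 on induced arrays and 19.0 ± 5.90 on control arrays, while Jund had 137.1 ± 6.14 on induced arrays and 145.5 ± 12.0 on control arrays. The part of these lists in the results for the stress genes was not tested.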

How the data were processed

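Bone marrow RNA of 3 induced and 3 control samples, each a pool of 3 mice, was read on Affymetrix arrays. The deposited signal intensities per probe set come from MAS5, per the submitters' processing notes, and their scaling target is not given in the sources used here. The authors' deposited table holds an unadjusted p-value, a ratio of control over induced, a signed fold change and F scores from an ANOVA, per the file headers. The fold changes and F scores were not used. Samples were grouped by their labels. The p-values measure the spread between pools.

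Limma 3.58.1 in R 4.3.3 (lmFit, eBayes) was run on log2(signal + 16), induced minus control, over probe sets with a mean above the 30th percentile, leaving out 64 control probe sets, with Benjamini-Hochberg adjustment over 31526 tests. A call is an adjusted p under 0.05. The script was tested on simulated data with 100 changed probe sets at each fold, drawn only from those with a mean signal over 10. It recovered 23% of the 2-fold and 75% of the 4-fold changes, and 6.67% of calls were false. The background signal of 2 was chosen after the data were seen. Alternatives were 2 scalings, 2 pseudocounts, 2 filters, an intensity trend, array weights, a replicate block, the authors' p-values, a threshold of 0.1, a gene's probe sets averaged, and each array left out.

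The stress genes and all lists were chosen with earlier results of these data known. Named genes are all members and, in each pathway list, the called genes with the smallest p, up to 4 in each direction. Marker lists are given by counts, sums and their brightest genes. A pathway gene or marker is read from its brightest probe set. Promoter windows are RefSeq's (GRCm38.p6), and their build is not tied to the array. Figures were drawn with matplotlib 3.10.9. The result of 1 pathway gene is not reported here, though it is held in the counts and medians of the lists.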

Additional observations from a re-analysis of the deposited data

How the results depend on the processing

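Of the 3 member calls, those of Ppp1r15a and Xbp1 were lost at a pseudocount of 1 and, for Xbp1, by the authors' p-values, and that of Eif2ak1 was lost under 7 alternatives, as given above. The cause was not tested. Member probe sets called higher numbered 0 with a pseudocount of 1, in place of 1, and those called lower 0 with a pseudocount of 1, 1 with 64 and 1 with no filter, in place of 2. Over all probe sets, those called higher (1320) numbered 110 with a pseudocount of 1, 801 with 64, 595 with no filter, 339 by the authors' p-values and 879 to 1363 when 1 array was left out. Those called lower (427) numbered 853 after quantile normalization, 101 with a pseudocount of 1, 246 with no filter, 274 by the authors' p-values and 277 to 437 when 1 array was left out. Pathway genes called higher (8) numbered 2 with a pseudocount of 1, 3 with no filter, 3 by the authors' p-values and 5 with a gene's probe sets averaged. Pathway genes called lower (6) numbered 1 with a pseudocount of 1, 2 with 64, 2 with no filter, 2 by the authors' p-values and 3 with a gene's probe sets averaged. When 1 array was left out, member probe sets called lower numbered 1 to 3, pathway genes called higher 6 to 8 and pathway genes called lower 2 to 6.

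Same-numbered arrays did not deviate together (correlations -0.0693, 0.0378 and -0.0303), so the numbers do not pair the samples. With the replicate block the calls over all probe sets were 1052 higher and 325 lower, the members' counts stayed at 1 and 2, and pathway genes numbered 6 higher and 2 lower.

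The sign turned for 7 member probe sets, none of them called. Atf4 1448135_at had log2 changes of -0.13 after quantile normalization, -0.047 after scaling to 1 trimmed mean, -0.011 with array weights, -0.11 in the authors' table and -0.043 to 0.17 when 1 array was left out. Herpud1 1448185_at had -0.10 after quantile normalization, -0.042 after scaling, -0.0016 with a pseudocount of 1 and -0.10 to 0.078 when 1 array was left out. Eif2ak1 1421900_at had -0.011 after quantile normalization, -0.51 in the authors' table and -0.11 to 0.12 when 1 array was left out, and Chac1 had 0.0056 with array weights and -0.068 to 0.019. Leaving out 1 array gave -0.036 to 0.10 for Sesn2 1425139_at, -0.0072 to 0.13 for Xbp1 1420011_s_at and -0.19 to 0.020 for Herpud1 1435626_a_at. Signals at or under background made up 76.9% of all values, which limits what could be detected.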
